A study of Mus musculus with 31 samples.

Results

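Cytosolic ribosomal proteins are the protein building blocks of the ribosome, and 81 of the 27623 genes in the table encode them by symbol. They were taken as every symbol made of Rpl or Rps, a number and at most 1 trailing letter a, l, x or y, together with Rplp0, Rplp1, Rplp2 and Rpsa. Symbols with -ps and the Rps6k kinases were left out. The rule gave 50 genes with large-subunit symbols and 31 with small-subunit symbols. It also took up the paralogs Rpl3l, Rpl39l and Rps27l and the less usual entries Rpl6l and Rpl32l. It left out 8 further Rpl or Rps symbols, among them Rpl22l1, Rpl36al, Rpl7l1 and Rps3a1, the gene of a core small-subunit protein.

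RNA was sequenced from mouse colon 7 days post induction, in 31 libraries of 3 genotypes. The WT group (n = 11) was Tak1f/f Ripk1 D138N/D138N. The HO group (n = 10) was TAK1 IEC-KO Ripk1 D138N/D138N, with TAK1 removed from intestinal epithelial cells. The DHO group (n = 10) carried the same TAK1 IEC-KO and Ripk1 D138N/D138N alleles and in addition Tradd IEC-KO, with TRADD removed from the same cells as well. All 3 groups, controls included, therefore carried the kinase-dead form of RIPK1. TAK1, encoded by Map3k7, is a kinase of TNF and Toll-like receptor signalling, and TRADD is an adaptor of the TNF receptor. Age, Cre driver and inducing agent are not stated in the labels used. Nor do they state whether every library came from its own animal, and p-values therefore describe the spread among libraries.

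A ribosome holds equal numbers of nearly all of its proteins, and surplus free subunit proteins are degraded. Many ribosomal protein mRNAs begin with a C followed by a run of pyrimidines, the terminal oligopyrimidine (TOP) motif, through which mTORC1 and LARP1 control their translation. In the colon the crypt base, with its dividing cells, is known for high rates of ribosome production. The proteins Rpl5 and Rpl11 also bind the p53 regulator Mdm2 when ribosome assembly fails.

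The starts of genes that the results below turn on are shown with the window of 15 bases before and 15 bases from the annotated start, because the TOP motif lies there. Capitals mark the longest pyrimidine run that begins with C. The windows are from the RefSeq promoter table of build GRCm38.p6, in which 60 of the 81 genes were matched by symbol. Rpl24, Rplp2 and Rps9 had the highest estimates in HO against WT, Rpl10a, Rps26 and Rpl32l the lowest. Rps6 and Rpl15 show a run that spans the start, as do Rplp2, Rps9 and Eef1a1, and the run of Rpl32l begins at it. Eef1a1, an elongation factor gene, is a TOP gene outside the family. For Rpl10a, which has more than 1 annotated start, the most upstream is shown.
Rpl24 (+ strand, chr16:55966260-55966289): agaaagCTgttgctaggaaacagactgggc
Rplp2 (+ strand, chr7:141447636-141447665): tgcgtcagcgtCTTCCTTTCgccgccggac
Rps9 (+ strand, chr7:3704026-3704055): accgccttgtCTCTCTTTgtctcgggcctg
Rpl10a (+ strand, chr17:28328456-28328485): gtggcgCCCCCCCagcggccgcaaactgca
Rps26 (- strand, chr10:128626492-128626521): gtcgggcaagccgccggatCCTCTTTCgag
Rpl32l (+ strand, chr10:20208424-20208453): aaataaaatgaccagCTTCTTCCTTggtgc
Rps6 (- strand, chr4:86857353-86857382): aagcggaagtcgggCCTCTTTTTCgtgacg
Rpl15 (- strand, chr14:18270972-18271001): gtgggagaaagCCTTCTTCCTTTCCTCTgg
Eef1a1 (- strand, chr9:78481710-78481739): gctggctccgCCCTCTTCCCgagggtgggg
A C at the annotated start with a run of at least 5 pyrimidines was present in 14 of the 60 matched genes (23.3%) and in 3.01% of the 27025 genes of the table. A run of at least 7 that begins with C anywhere in the 30-base window was present in 32 of 60 (53.3%) and in 16.4% of all genes. The letters CCGGAAG, the core of ETS factor sites, were found on either strand between 250 bases before and 50 bases after the start in 41.7% of the matched genes and in 9.93% of all genes. The same window held AAGATGGC, letters of the YY1 motif, in 8.33% against 3.19%, GGGCGG in 58.3% against 38.2% and TATAAA in 11.7% against 15.7%. The 14 genes with a C and such a run at the exact annotated start had a median log2 change of -0.17 in HO against WT. The 44 tested genes with another matched start had -0.18. These groups do not separate TOP genes from others, because a run that lies off the annotated base counts as other. Rpl27a and Rpl7a, each with a run of 19 in the window, were in the other group. Eef1a1 has no C at its annotated start either.

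The authors' FPKM values (fragments scaled by gene length and by the size of the library) implied between 30800000 and 40400000 fragments per library, with group medians of 38600000 in WT, 36600000 in HO and 39000000 in DHO. Tradd lay between 1.36 and 3.89 FPKM in DHO, below all libraries of WT (45.9 to 97.5) and of HO (12.4 to 59.2). Map3k7 lay between 8.29 and 13.6 FPKM in WT, between 11.6 and 16.9 in HO and between 8.42 and 16.7 in DHO, so that the FPKM of the whole gene in whole tissue did not show its removal. Of the 14 markers of epithelium, 14 had a group median of at least 1 FPKM in WT and in DHO and 13 in HO. HO replicate 2 stood apart, with a summed epithelial marker level of 8485 FPKM where the other HO libraries reached at most 1489. DHO replicates 8 and 9 had summed neutrophil marker levels of 5307 and 1635 FPKM where the other DHO libraries reached at most 444. The libraries also fell into a set of 17 with the noncoding RNA Gm15564 under 1 FPKM (at most 0.0736) and a set of 14 with at least 1 FPKM (6.27 to 14.5). Both sets held libraries of all 3 groups (6 WT, 5 HO and 6 DHO, against 5, 5 and 4). No batch is named in the labels.

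Levels of single ribosomal protein mRNAs spanned a wide range. In WT the 79 genes that passed the expression filter (at least 1 FPKM in at least 10 libraries) had group medians from 1.41 FPKM for Rpl32l to 3752 FPKM for Rpl41, with a middle value of 879. The median was at least 1000 FPKM for 31 of them, between 100 and 1000 for 45 and under 100 for 3 (Rpl32l, Rps27l and Rpl6l). After Rpl41, which encodes the smallest ribosomal protein, the highest were Rplp1 at 2749 FPKM and Rps14 at 2605 FPKM. The 2 genes under the filter were Rpl3l and Rpl39l.

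Together the 81 genes made up 12.4% to 18.1% of the summed FPKM of a WT library (median 16.3%), 10.8% to 15.1% in HO (median 12.98%) and 11.6% to 19.1% in DHO (median 14.8%). The ranges overlapped between all groups. The median log2 level over the 79 tested genes was 9.21 to 10 in WT, 9.37 to 9.84 in HO and 9.22 to 10.1 in DHO. The spread within a group was as wide as the distance between groups. In bulk tissue, fewer cells of a type and less RNA per cell cannot be told apart.

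**Figure D1:**
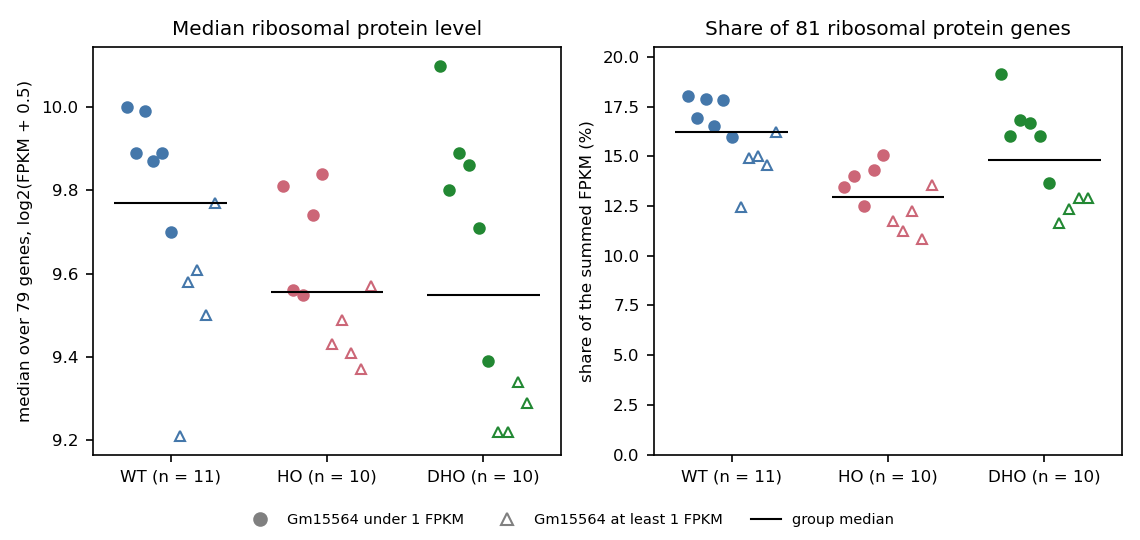
Ribosomal protein mRNA in each library by genotype: the left axis is the median log2(FPKM + 0.5) over 79 genes (it does not start at 0) and the right axis the share of the summed FPKM in percent. Circles are libraries with Gm15564 under 1 FPKM, triangles those with at least 1 FPKM, and lines group medians; the shares have medians of 16.3% in WT, 12.98% in HO and 14.8% in DHO with overlapping ranges, and triangles lie mostly low within each group.

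Part of the family was modestly lower in colon without epithelial TAK1, and 1 member was higher. In HO against WT, 27 of the 79 tested genes fell and 1, Rpl24, rose past the threshold (limma, Benjamini-Hochberg adjusted p under 0.05). The rest, 51 genes, did not pass. Over all 12812 genes tested, 38.4% fell and 33.0% rose. The family thus had a lower share of called genes than the table. The median log2 change of the 79 was -0.20, beside -0.06 for all genes, and single genes ran from -0.58 to 0.31. The estimate was negative for 68 genes and positive for 11, signs that were not counted over all genes. None of the 79 genes had HO libraries that all lay below or all above the WT libraries, a pattern that 15.9% and 16.1% of all genes showed. In the same comparison the epithelial markers had a median log2 change of -5.44 and the neutrophil markers one of 8.33.

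The smallest p-value belonged to Rps26, a small-subunit protein at the mRNA exit. Its level was 1365 to 2081 FPKM in WT (median 1811), 1110 to 1565 in HO (median 1213) and 1294 to 2266 in DHO (median 1565). Most HO libraries lay below the lowest WT library, and DHO spanned the WT range. The log2 change in HO against WT was -0.56 (SE 0.0945, limma adjusted p = 4.61e-06).

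Rpl10a, a protein of the flexible L1 stalk near the exit site for tRNA, had the largest fall. It lay at 536 to 1010 FPKM in WT (median 805), 379 to 729 in HO (median 555) and 458 to 1050 in DHO (median 753). The WT and HO ranges overlapped, although the medians were well apart. Its log2 change in HO against WT was -0.58 (SE 0.154, adjusted p = 0.00128 in limma).

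Rpl3, a core protein next to the peptidyl transferase centre, went from a median of 853 FPKM in WT (576 to 995) to 603 in HO (416 to 753), with 758 in DHO (552 to 997). This was a log2 change of -0.50 (SE 0.123, limma adjusted p = 0.000637). Rpl9, a large-subunit protein near the site where elongation factors bind, went from 1168 FPKM in WT (841 to 1325) to 787 in HO (706 to 954), a log2 change of -0.50 (SE 0.117, adjusted p = 0.000332). In DHO the median of Rpl9 was 868 FPKM (589 to 1236). The table entry Rpl32l fell by 0.54 on the log2 scale (SE 0.175, adjusted p = 0.00688), from a median of 1.41 FPKM to 0.594. It lost the call with quantile normalisation (-0.20, adjusted p = 0.405). Its median reached the 1 FPKM of the filter in WT only (0.890 in DHO), so it was tested mainly through WT libraries. Its fall is therefore no support for a fall of the family. With a filter at 5 FPKM, 26 of 78 genes fell and 1 rose, beside 39.3% and 33.2% of all genes.

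The gene that rose, Rpl24, encodes a protein at the interface between the subunits. It lay at 553 to 824 FPKM in WT (median 718), 664 to 1111 in HO (median 857) and 456 to 836 in DHO (median 645). The upper HO libraries exceeded every library of WT and DHO. The log2 change in HO against WT was 0.31 (SE 0.0944, limma adjusted p = 0.00383), and 0.19 with each library scaled to the same summed FPKM (adjusted p = 0.0436). Rplp2 (0.26, adjusted p = 0.0732) and Rps9 (0.23, adjusted p = 0.0572) had the next highest estimates and did not pass.

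**Figure D2:**
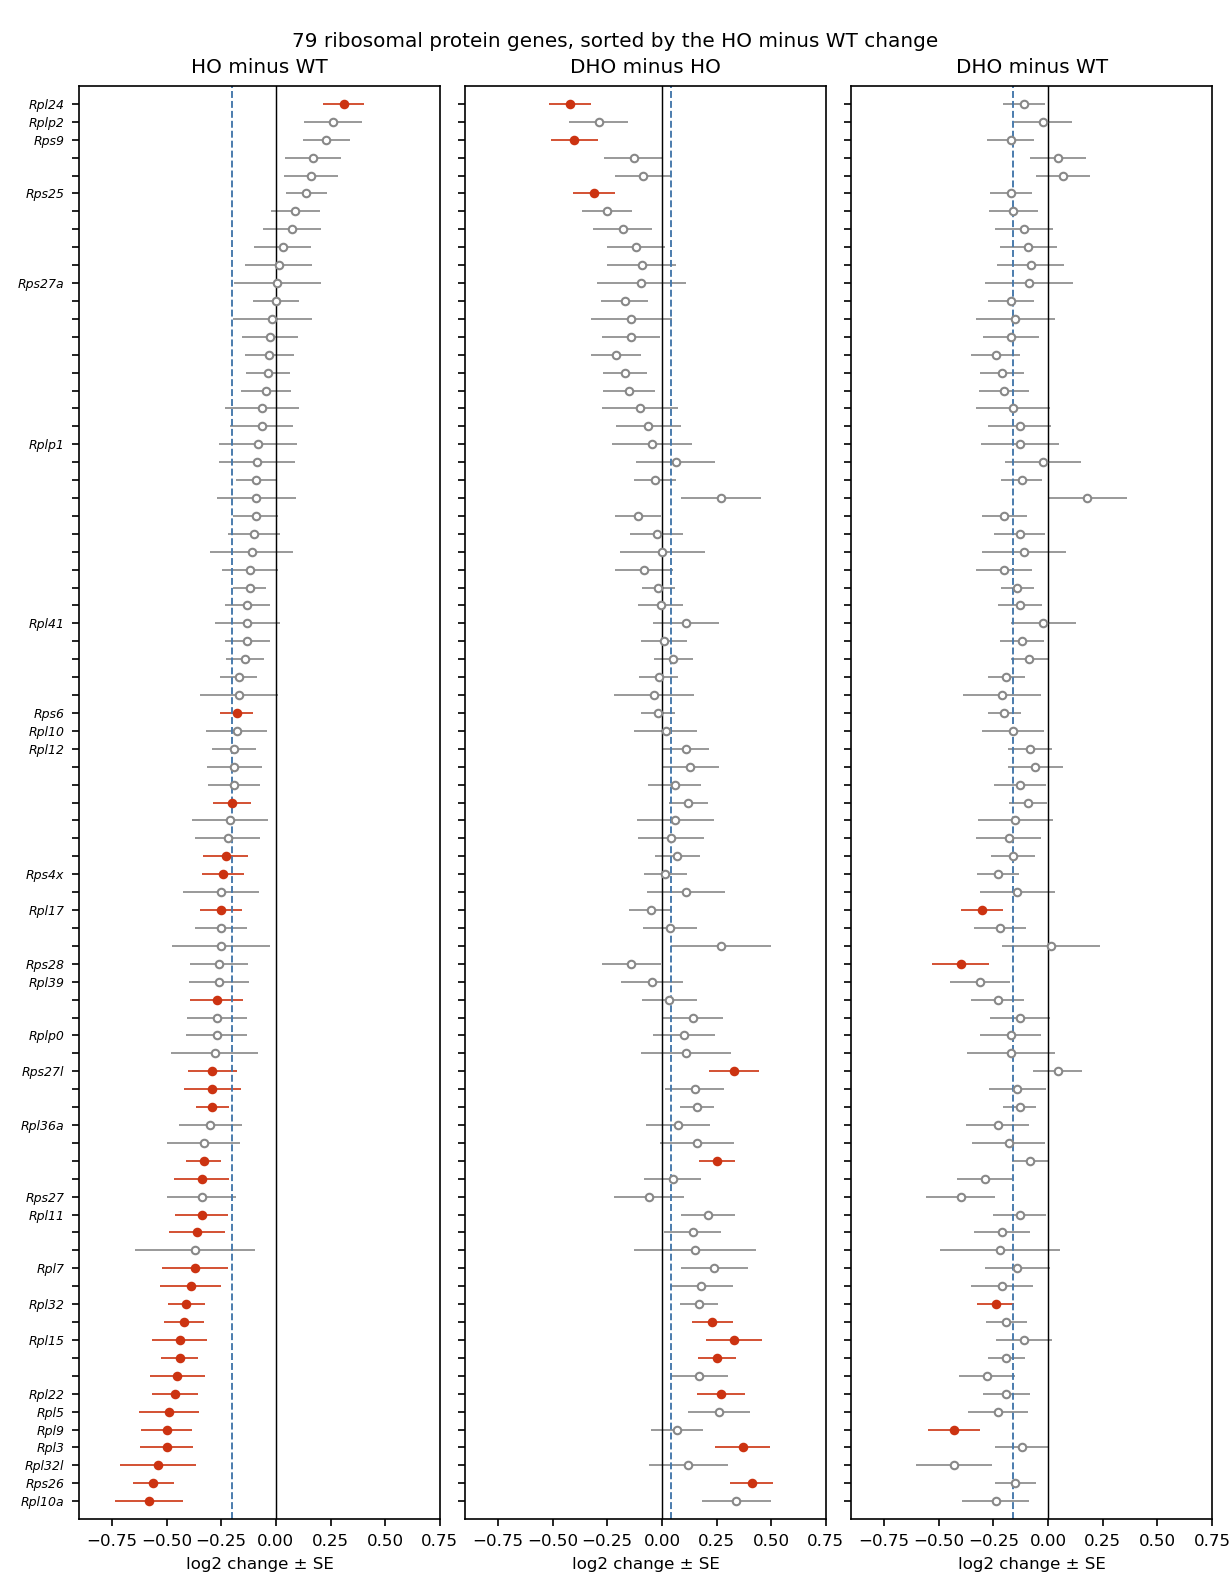
Log2 change with its standard error for each of 79 ribosomal protein genes in the 3 comparisons, sorted by HO minus WT, with the names of part of the genes; filled red points have an adjusted p under 0.05, the dashed line is the median over the genes (-0.20, 0.04 and -0.16) and the solid line is 0. The genes run from -0.58 (Rpl10a) to 0.31 (Rpl24) in HO minus WT, and 28, 11 and 4 genes pass in the 3 comparisons.

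Genes of the large subunit fell in 19 of 48 cases tested and rose in 1, with a median of -0.25. Those of the small subunit fell in 8 of 31 and rose in none, with a median of -0.17. The share of falls in the large subunit was close to that of all genes, of which 38.4% fell and 33.0% rose. Among 8 genes of the polypeptide exit tunnel, 4 fell: Rpl4 (-0.29), Rpl17 (-0.25), Rpl23a (-0.20) and Rpl31 (-0.36). Both proteins of the 5S particle, which carries the 5S RNA into the large subunit, fell. Rpl5 went from a median of 630 FPKM in WT (445 to 792) to 437 in HO (381 to 552), a log2 change of -0.49 (limma adjusted p = 0.00229). Rpl11 went from 514 FPKM (354.9 to 624.7) to 397 (326 to 476), a change of -0.34 (adjusted p = 0.0147).

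None of the 4 genes of the P stalk, which recruits elongation factors, passed the threshold. The estimates were -0.27 for Rplp0 (adjusted p = 0.0804), -0.08 for Rplp1 (0.699), 0.26 for Rplp2 (0.0732) and -0.19 for Rpl12 (0.0944). Along the mRNA path of the small subunit, 2 of 11 genes fell, Rps26 and Rps15, and none rose. Of 17 genes mutated in human Diamond-Blackfan anaemia, 6 fell and none rose, with a median of -0.26; of all genes 38.4% fell and 33.0% rose. Rps6, whose phosphorylation is a common readout of mTORC1, fell by 0.18 on the log2 scale (SE 0.0762, adjusted p = 0.0381), from a median of 733 FPKM in WT (623 to 914) to 663 in HO (562 to 761).

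Some ribosomal proteins are made as fusions to ubiquitin or a ubiquitin-like protein. Rps27a did not change detectably (0.01, SE 0.2, adjusted p = 0.978), and its libraries were widely spread (506 to 1219 FPKM in WT, 551 to 1232 in HO). Fau, outside the symbol rule, was at 0.10 (limma adjusted p = 0.545).

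The median change of the family and the number of genes called depended on how libraries were scaled. With each library scaled to the same summed FPKM, 52 genes fell and 1 rose in HO against WT, with a median of -0.33 beside -0.18 for all genes, of which 44.4% and 28% fell and rose. With quantile normalisation 25 fell and 8 rose, with a median of -0.10 (all genes 35.2% and 35.9%). With each library centred on the median of the family, 20 genes fell and 11 rose relative to it (all genes 29.7% and 36.7%). Rpl10a, Rps26, Rpl3, Rpl9, Rpl5 and Rpl11 were among the 20, and Rpl24, Rplp2, Rps9, Rps25 and Rpsa among the 11. The change of Rplp2 against the family was 0.42 (limma adjusted p = 9.47e-06) and that of Rps9 0.38 (adjusted p = 5.6e-07).

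The Gm15564 sets gave HO against WT in separate libraries. Over the 79 genes the log2 changes of both sets had a Pearson correlation of 0.91 and a Spearman correlation of 0.89, across genes that share their libraries within a set. In both sets 63 genes had a negative estimate and 10 a positive one, and 6 differed in sign. In the set under 1 FPKM 32 genes fell and none rose, where 36.5% and 32% of all genes fell and rose. In the set of at least 1 FPKM 21 fell and 3 rose, where 36.3% fell and 31.4% rose. The same 17 genes fell in both, among them Rpl3, Rpl4, Rpl5, Rpl9, Rpl10a, Rpl11, Rpl15, Rpl22, Rpl32 and Rps26. The correlations, the shared signs and the shared falls were not computed over all genes. They therefore do not show that the family agreed between the sets more than other genes did. The difference of the change between the sets passed the threshold for no gene of the family and none of the 12812 genes (limma interaction), with 0 and 377 at an unadjusted p under 0.05. Without HO replicate 2 the counts over all libraries were 25 lower and 2 higher (all genes 38.8% and 33%).

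**Figure D3:**
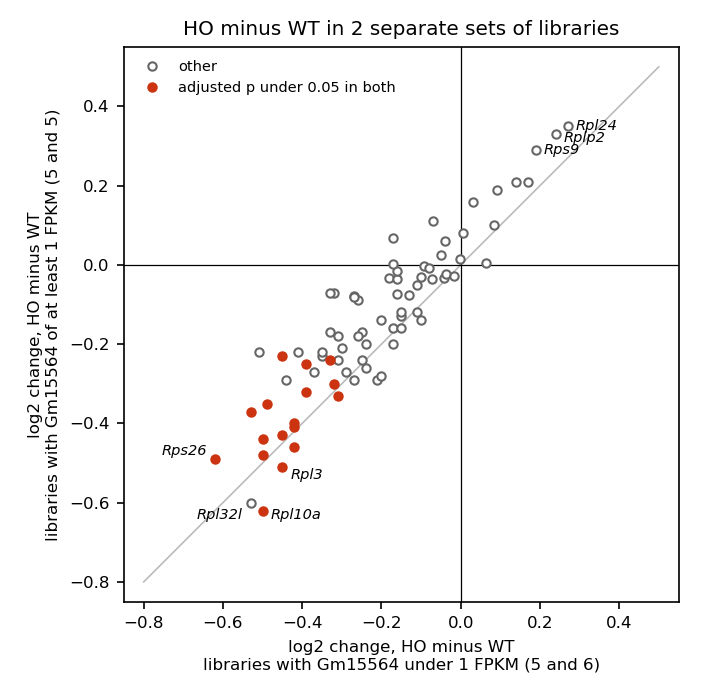
Log2 change in HO minus WT of 79 ribosomal protein genes in the libraries with Gm15564 under 1 FPKM (horizontal, 5 HO and 6 WT) and of at least 1 FPKM (vertical, 5 and 5); red points pass the adjusted p in both and the grey line marks equal change. The 17 red genes lie at the lower left and Rpl24, Rplp2 and Rps9 at the upper right, with a Pearson correlation of 0.91.

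Paralog pairs were examined because some ribosomal proteins have a copy with its own tissue range. Rpl3l, the form of Rpl3 known from heart and skeletal muscle, was 0 to 0.0955 FPKM in WT, 0.336 to 1.89 in HO and 0 to 0.118 in DHO. Every HO library lay above every other library. Among the tested genes, which leave out Rpl3l, 16.1% had all HO libraries above WT. All DHO libraries lay below HO for 7.39% of them. Its mean was 0.933 FPKM in HO and 0.0420 in WT (permutation test, two-sided, p = 4e-05, 0.00012 after adjustment over 6 tests), and 0.0279 in DHO (p = 6e-05 against HO, adjusted 0.00012). Rpl39l, known from the male germ line, was 0 to 0.122 FPKM in WT, 0.0339 to 1.14 in HO and 0 to 0.294 in DHO, with overlap. Its means were 0.0196, 0.397 and 0.0635 FPKM (HO against WT p = 6e-05, adjusted 0.00012). The smallest p these permutations allow is 2e-05. Both genes remained far below their partners: the share of Rpl3l in the sum of Rpl3l and Rpl3 was at most 0.392% in any HO library.

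Rps27l, a p53 target in human cells, fell. It had a median of 46.9 FPKM in WT, of 37.3 in HO and of 43.4 in DHO, a log2 change of -0.29 in HO against WT (adjusted p = 0.0212), beside -0.34 (0.0564) for Rps27. Rpl22 and Rpl22l1, of which the first encodes a known repressor of the other, both fell by 0.46 on the log2 scale (limma adjusted p = 0.000292 and 0.00289). Rpl7l1 rose from 34.7 FPKM in WT (28.3 to 38.2) to 45.4 in HO (36.1 to 59.5) while Rpl7 fell, with log2 changes of 0.39 (adjusted p = 6.56e-05) and -0.37 (0.0259). Rpl36al rose by 0.27 (adjusted p = 0.0212), and Rpl36a had -0.30 (0.0576). Of the partners without a tested copy, Rps4x fell by 0.24 on the log2 scale (adjusted p = 0.0245), Rpl10 had -0.18 (0.259) and Rpl39 -0.26 (0.0864).

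**Figure D4:**
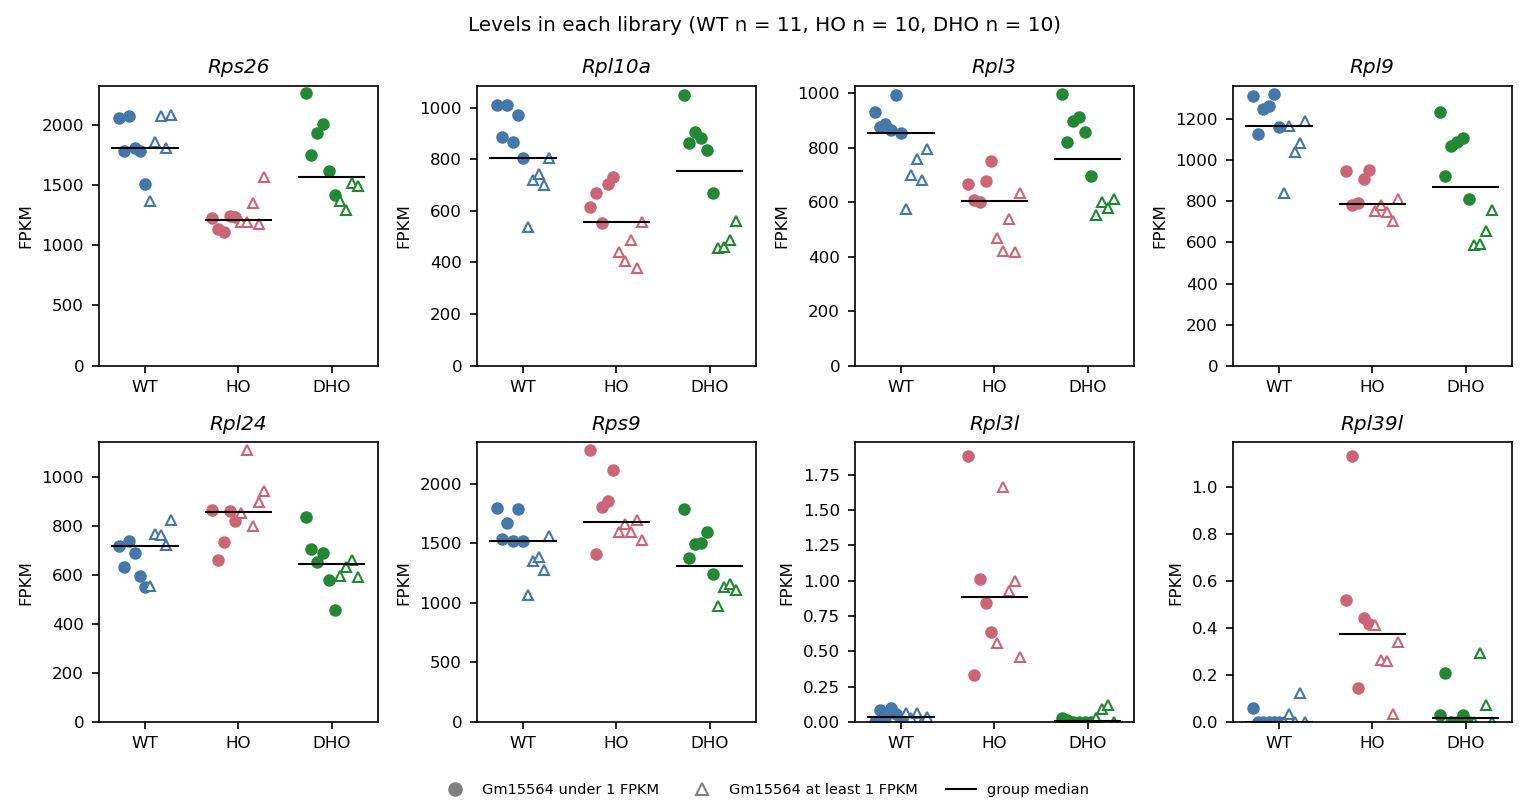
FPKM in each library for 8 ribosomal protein genes (WT n = 11, HO n = 10, DHO n = 10); lines are group medians, circles are libraries with Gm15564 under 1 FPKM and triangles those with at least 1 FPKM. Rps26, Rpl10a, Rpl3 and Rpl9 have lower medians in HO than in WT, Rpl24 a higher one, and all HO libraries of Rpl3l (0.336 to 1.89 FPKM) lie above the others.

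With TRADD removed in addition, a small number of genes of the family differed from HO in both directions. In DHO against HO, 8 of the 79 genes rose and 3 fell (limma), where 39.0% and 29.7% of all genes did, and 68 did not pass. The median log2 change was 0.04, beside 0.10 for all genes. None of the 79 had DHO libraries all above or all below the HO libraries, a pattern of 7.27% and 7.39% of all genes. The comparison shares the HO libraries with the one above, so low values in them favour both a fall there and a rise here. The 8 genes that rose, among them Rps26, Rpl3, Rpl15, Rps27l and Rpl22, had all fallen in HO against WT. This overlap is therefore no separate evidence of a reversal, and it was not counted over all genes.

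Rps26 rose by 0.41 (SE 0.0967, limma adjusted p = 0.000455) and Rpl3 by 0.37 (SE 0.126, adjusted p = 0.00969). Rpl15, a core large-subunit protein, had a median of 301 FPKM in WT, of 215 in HO and of 271 in DHO and rose by 0.33 (SE 0.129, adjusted p = 0.0236). Rps27l rose by 0.33 (adjusted p = 0.0105) and Rpl22 by 0.27 (adjusted p = 0.0272). The 3 genes that fell were Rpl24 (-0.42, SE 0.0967, adjusted p = 0.000301), Rps9 (-0.40, SE 0.109, 0.0018) and Rps25 (-0.31, SE 0.0976, 0.00619). Rps9, a small-subunit protein at the mRNA entry, lay at 1066 to 1797 FPKM in WT (median 1519), 1405 to 2281 in HO (median 1675) and 971 to 1790 in DHO (median 1310). Rps25, which internal ribosome entry sites of viruses require, had medians of 921, 1032 and 806 FPKM. With each library scaled to the same summed FPKM, 29 genes rose and 2 fell, and the median was 0.20 beside 0.25 for all genes, of which 24.8% and 47.1% fell and rose. Rps25 then had -0.15 (adjusted p = 0.0827).

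The counts differed between the Gm15564 sets. In the set under 1 FPKM, 19 genes rose and 1, Rps9, fell, with a median of 0.13 (38.2% and 31.8% of all genes rose and fell). In the set of at least 1 FPKM, none rose and 19 fell, with a median of -0.18 (33.5% and 26.5%). Without DHO replicates 8 and 9 that set gave 12 lower genes and the same median of -0.18 (all genes 28.3% and 32.5% lower and higher). Rps26 rose by 0.61 in the set under 1 FPKM (adjusted p = 0.000113), and in the other set its change was 0.13 (adjusted p = 0.381). No gene of the family passed the test of this difference (limma interaction, 4.43% of all genes did), and 27 of 79 had an unadjusted p under 0.05, beside 27% of all genes. Rps9 fell in both sets (-0.32, adjusted p = 0.0204, and -0.57, adjusted p = 0.00044). With the set as a term, 12 genes rose and 11 fell (all genes 33.3% and 42.8% lower and higher).

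Against WT, colon without epithelial TAK1 and TRADD showed few changes in the family. In DHO against WT, 4 of the 79 genes fell and none rose (limma), where 8.7% and 12.5% of all genes did, and 75 did not pass. At an unadjusted p under 0.05 there were 16 genes, a count not made over all genes. The median log2 change was -0.16, beside 0.02 for all genes, with 74 negative estimates and 5 positive ones. The signs were not counted over all genes either. No gene's libraries were all below or all above WT (0.0859% and 0.468% of all genes). The genes that fell were Rpl9 (-0.43, SE 0.117, adjusted p = 0.0107), Rps28 (-0.40, SE 0.132, 0.0319), Rpl17 (-0.30, SE 0.0963, 0.0288) and Rpl32 (-0.24, SE 0.0854, 0.0414).

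Rps28, a small-subunit protein at the mRNA exit, lay at 546 to 1155 FPKM in WT (median 799), 481 to 851 in HO (median 740) and 481 to 872 in DHO (median 611). Rpl17, a protein of the tunnel exit, had medians of 703, 561 and 543 FPKM. Rpl32, a large-subunit protein, had medians of 1687, 1252 and 1418 FPKM. In these 4 genes the DHO range reached into the WT range. Without DHO replicates 8 and 9 none of the 79 genes passed in limma, 7 had an unadjusted p under 0.05, and Rpl9 had -0.32 (adjusted p = 0.062). Of all genes 4.01% and 6.18% then fell and rose past the adjusted threshold, and unadjusted p-values were not counted over them. Without DHO replicate 8 alone 1 gene fell (all genes 5.78% and 8.63% lower and higher), and without DHO replicate 9 alone 2 fell (5.62% and 8.8%). Without WT replicate 7, the WT library with the lowest family median, 10 fell (8.94% and 12.2%).

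The count again depended on the Gm15564 set. None of the 79 genes passed in the set under 1 FPKM, where the median was -0.08 and 0.156% and 0.375% of all genes fell and rose. There 1 gene had an unadjusted p under 0.05, a count not made over all genes. In the set of at least 1 FPKM 48 fell and none rose, with a median of -0.31, where 18.7% and 21.1% of all genes did. Without DHO replicates 8 and 9 this set held 2 DHO libraries, 3 genes fell (4.23% and 2.98% of all genes fell and rose) and the median was -0.32. The 2 DHO libraries left are assumed to vary like the other groups. The difference between the sets passed the threshold for Rpl9 (-0.45, limma interaction, adjusted p = 0.0486), beside 9.8% of all genes. Its change was -0.26 (adjusted p = 0.203) in the set under 1 FPKM and -0.71 (adjusted p = 0.0015) in the other. With the set as a term, 24 genes fell and none rose, beside 16.3% and 19.2% of all genes.

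Within every genotype the family was lower in the libraries with more Gm15564. In WT 66 of the 79 genes had the lower median there (62.9% of all genes), with a median log2 difference of -0.26 (all genes -0.12). Of the 79, 25 had all libraries below those of the other set and 2 all above (16.3% and 9.05% of all genes). In HO 68 genes were lower (62.5% of all genes), with a median of -0.28 (all genes -0.13), with 22 all below and 6 all above (9.72% and 5.59%). In DHO 74 were lower (54.1% of all genes), with a median of -0.58 (all genes -0.08), with 44 all below and none above (18.5% and 12.1%). Rpl10a, whose differences were larger than the family median, had a median of 929 FPKM in the set under 1 FPKM and 720 in the other in WT, 671 and 442 in HO and 872 and 473 in DHO. Rps28 was among the exceptions in every group, as were Rpl28, Rps27 and Rpl6l. The medians of Rps28 were 710 and 1042 FPKM in WT, 590 and 807 in HO and 554 and 667 in DHO. Depth and marker levels moved with the sets as well, and their part in these differences was not tested. The fragments per library were 38600000 to 39900000 in the set under 1 FPKM and 33300000 to 38300000 in the other in WT, 38900000 to 40400000 and 30800000 to 34300000 in HO, and 38600000 to 39500000 and 32400000 to 39300000 in DHO. Of 11 marker lists, the summed level was lower in all libraries with at least 1 FPKM of Gm15564 for 2 in WT, 3 in DHO and none in HO. In WT and DHO these were the epithelial markers (9860 to 11030 against 8280 to 9374 FPKM, and 10590 to 12090 against 5599 to 9903) and the enteric neuron and glia markers (56.3 to 79.8 against 17.1 to 47.6 FPKM, and 41.2 to 75.3 against 18.1 to 37.7). In DHO the smooth muscle markers were the third (2995 to 5601 against 880 to 1997 FPKM). The other ranges overlapped.

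Other lists of translation genes were counted in the same way. Their counts stand beside the shares of all genes: 33.0% rose and 38.4% fell in HO against WT, 39.0% and 29.7% in DHO against HO, and 12.5% and 8.7% in DHO against WT. Of 50 genes of ribosome biogenesis, 19 rose and 9 fell in HO against WT with a median of 0.21. In DHO against WT 32 rose and none fell, with a median of 0.41, in the comparison where no ribosomal protein gene rose. Among those that fell in HO, Tsr1, a factor of small-subunit maturation, went from a median of 22.9 FPKM in WT to 12.1 in HO and 26.1 in DHO (HO against WT -0.97, limma adjusted p = 5.95e-09). Utp20, a processome component, went from 7.63 to 3.23 and 8.93 FPKM (-1.22, adjusted p = 2.08e-08). Of 78 mitochondrial ribosomal protein genes, 41 fell and 2 rose in HO against WT with a median of -0.29, and 60 rose and 2 fell in DHO against HO with a median of 0.46. Of 73 nuclear genes of oxidative phosphorylation, 67 fell in HO against WT with a median of -0.96 and 65 rose in DHO against HO with a median of 0.83.

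Among 14 elongation factors and other TOP mRNAs, 7 fell and 2 rose in HO against WT (38.4% and 33.0% of all genes), with a median of -0.24. Eif4b, a helicase cofactor with a TOP mRNA, fell from a median of 147 FPKM to 93.0 (-0.59, adjusted p = 8.5e-09). Vim, an intermediate filament gene of mesenchymal cells and leukocytes with a TOP mRNA, rose from 155 to 932 FPKM (2.52, adjusted p = 2.19e-13). Of 35 initiation factors, 11 rose and 9 fell (33.0% and 38.4% of all genes), and the smallest p-values belonged to Eif4a2 (-1.32, adjusted p = 1.29e-11) and Eif3l (-0.58, adjusted p = 2.58e-08).

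Of 19 genes of mTORC1 and TOP control, 10 rose and 4 fell in HO against WT, where 33.0% and 38.4% of all genes did, as for the further lists in this comparison. Eif4ebp1, the translation repressor 4E-BP1, rose from a median of 25.1 FPKM in WT (13.7 to 33.3) to 106 in HO (63.4 to 153), with 27.7 in DHO (18.2 to 61.9), a log2 change of 2.19 (limma adjusted p = 2.47e-11). Rragc, a Rag GTPase that recruits mTORC1 to lysosomes, rose by 0.70 (adjusted p = 7.6e-11). Of 11 Myc family and promoter factors, 6 fell and 2 rose: Mycl went from 8.17 to 0.357 FPKM (-3.14, adjusted p = 6.15e-15) and Max, the partner of Myc, from 104 to 41.0 FPKM (-1.28, adjusted p = 1.33e-09). Of 14 genes of the integrated stress response, which lowers general initiation, 9 rose and none fell, with a median of 0.79. Ppp1r15a, a phosphatase subunit of this response, had 1.64 (adjusted p = 8.99e-09) and the factor Atf5 1.03 (adjusted p = 1.19e-08). Of 11 tested genes of p53 and its targets, 5 rose and 1 fell, with Mdm2, the p53 regulator that binds Rpl5 and Rpl11, at 1.09 (adjusted p = 1.33e-09) and Sesn2 at 1.15 (adjusted p = 7.73e-08).

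**Figure D5:**
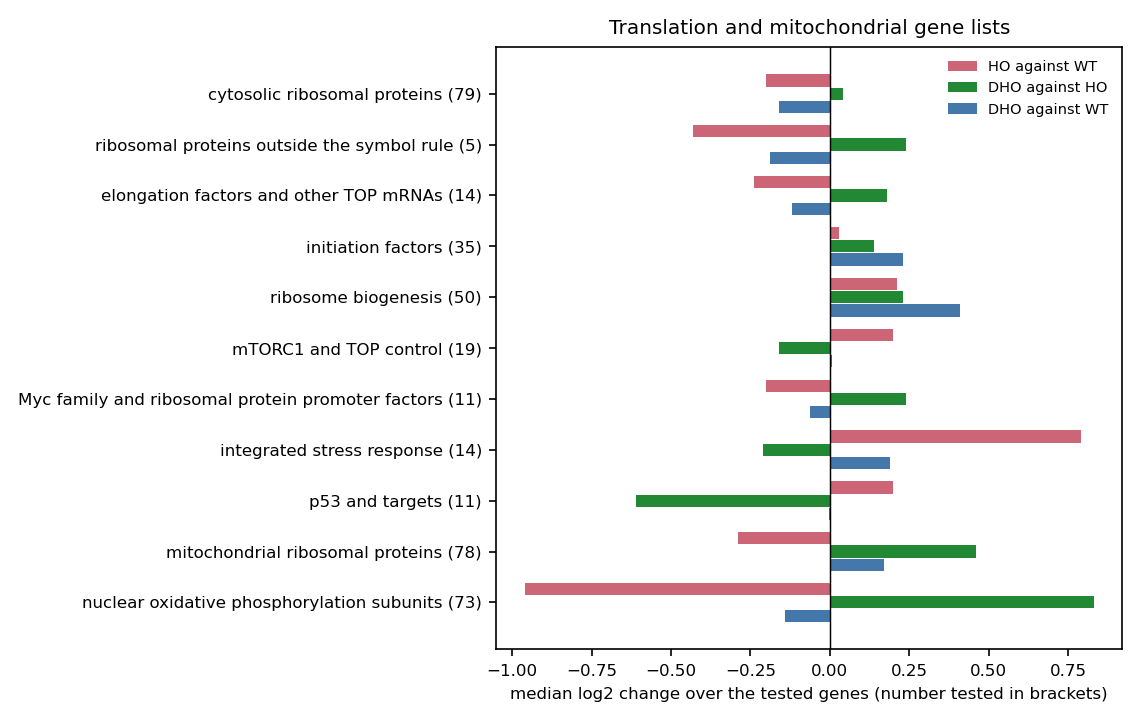
Median log2 change of the tested genes of each list in the 3 comparisons, with the number of tested genes in brackets. The ribosomal proteins have -0.20, 0.04 and -0.16, ribosome biogenesis 0.21, 0.23 and 0.41, and nuclear oxidative phosphorylation -0.96, 0.83 and -0.14.

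Markers of cell types moved with the same groups, and their part in the ribosomal protein results was not tested. All 14 epithelial markers fell in HO against WT, where their summed level ranged from 14.9 to 8485 FPKM beside 8280 to 11030 in WT and 5599 to 12090 in DHO. Of 12 tested neutrophil markers 11 rose and 1 fell, with summed levels of 154 to 340 FPKM in WT, 9741 to 62280 in HO and 251 to 5307 in DHO. All 12 macrophage markers rose (286 to 658 FPKM in WT, 2648 to 6302 in HO, 537 to 2525 in DHO), and all 12 smooth muscle markers fell (3238 to 10490, 940 to 3760 and 880 to 5601 FPKM). Fibroblast markers rose in 7 of 10 and endothelial markers in 8 of 10. Crypt stem cell markers fell in 8 of 10 and rose in 1, and proliferation markers fell in 12 of 16 (210 to 473 FPKM in WT, 106 to 324 in HO, 314 to 669 in DHO). Of the enteric neuron and glia markers 8 of 9 tested rose and 1 fell, of the T cell markers 3 of 7, and of the B cell and plasma cell markers 3 of 12 fell and 1 rose.

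Sequence shared with other genes limits how well single ribosomal proteins can be told apart, since their processed pseudogenes are many. Of the 81 genes, 69 shared a stretch of at least 100 bases at 98% identity with another annotated gene, and 43 shared more than 50% of their longest transcript. The shared part was 63.0% for Rps26, 78.8% for Rpl10a, 89.8% for Rpl3 and 83.5% for Rpl24. For Rps9, Rpl22, Rpl3l and Rpl39l no shared stretch was found. How the authors treated reads that map more than once is not stated in the labels used, so the separate levels of the genes that share sequence are uncertain.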

How the data were processed

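The deposited table holds 27623 genes in 31 libraries as FPKM, computed by the authors; the unit is named with the series, and the values fit it. Per the labels' protocols, RNA came from TRIzol extraction, and the VAHTS Universal V6 kit made the libraries. The steps named by the submitters' processing notes are fastp, HISAT2, HTSeq and build mm10; versions and the handling of multiply mapped reads are not stated there. No counts were used: depth was estimated from the FPKM worth of 1 fragment with GENCODE exon lengths, and depth limits mainly the genes near 0. The 12812 genes that reached 1 FPKM in 10 or more libraries were tested on log2(FPKM + 0.5), which understates changes of low genes, with limma 3.58.1 in R 4.3.3 (a mean per group, all 31 libraries, trended and robust variance). Tests were two-sided, and p-values were Benjamini-Hochberg adjusted over all genes within a comparison, with a threshold of 0.05. Rpl3l and Rpl39l were compared by permutation (100000 resamples, SciPy 1.17.1). The main limma fit was tried on simulated data for HO against WT. The interaction fit, the fit with the set as a term and the permutation test were not. Named genes were the 5 largest called rises and falls in each comparison, the paralog, stalk, fusion and 5S particle genes, Rps6, the highest and lowest in WT, and 2 genes with the smallest p from each translation list; other genes were named after their values were seen, and some genes are not reported here. The members, lists and alternatives were chosen with earlier results of these data known. Alternatives varied pseudocount, filter, scaling, variance model, groups, libraries and Gm15564 set.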

Additional observations from a re-analysis of the deposited data

Results flagged for a closer look

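Among 66 group values examined, 2 had a library far from the others of its group, and chance gives about 1 in 20. Rpl32 in DHO replicate 1 was 1970 FPKM, where the next DHO library had 1574. Rpl39l in HO replicate 2, the HO library with the highest epithelial marker level, was 1.14 FPKM, where the next HO library had 0.518. The change of Rpl9 in DHO against WT differed between the Gm15564 sets by -0.45 on the log2 scale (limma interaction, adjusted p = 0.0486).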

How the results depend on the processing

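Of 2877 values recomputed under 20 other settings, 17 of them planned, 2511 kept their direction and side of the threshold (or stayed within the spread between libraries), 100 lost a call, 151 gained one, 115 moved and none reversed. The cause of these shifts was not tested. The SD of the family median between libraries was 0.25 on the log2 scale, wider than the family's median change in each comparison. The count of 2511 therefore says little about changes of that size. For HO against WT, 28 ribosomal protein genes passed, beside 71.4% of all genes. With the same summed FPKM 53 did (all genes 72.3%), and 45 with the Gm15564 set as a term (78.1%). For DHO against HO, 11 passed (all genes 68.7%). The count was 31 with the same summed FPKM (71.9%), 23 with quantile normalisation (68.1%) and 26 centred on the family (63.1%). It was 17 without DHO replicates 8 and 9 (71.1%), also when HO replicate 2 was left out (72.0%). Within the Gm15564 sets under and at least 1 FPKM it was 20 and 19 (69.9% and 60.0%), and 23 with the set as a term (76.1%). For DHO against WT, 4 passed; the count was 2 with no filter, 2 with only the groups compared, 1 to 2 when DHO replicate 8 or 9 was left out, 0 without both (also without HO replicate 2), 0 and 48 within the Gm15564 sets and 24 with the set as a term. It was 3 in the set of at least 1 FPKM without DHO replicates 8 and 9 (7.21%), and 10 without WT replicate 7 (21.2%). The settings with WT replicate 7, with HO replicate 2 and both DHO replicates, and with this smaller set were chosen after seeing the data. No paired analysis was possible because the labels give no replicate numbers shared between the groups. Depth limits Rpl3l and Rpl39l, whose values rest on few fragments.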
